A study of Mus musculus with 2 samples.

Results

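The genes described here are the protein-coding neighbours of *Folr2*, the gene of folate receptor β (FRβ), on mouse chromosome 7. A member is any protein-coding gene of GENCODE M21 (mm10) whose midpoint lies within 10 Mb of the midpoint of *Folr2* at 101848591, leaving out symbols that start with Trim, Olfr, Folr, Hbb, Nduf, Rpl or Rps. These rules gave 161 members among 384 protein-coding genes of the window and 54532 gene identifiers in the count table, the left-out genes being mostly the 199 Olfr odorant receptors. The rule uses position, gene type and name.

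The tested cells were M1-like bone marrow derived macrophages (BMDMs) of male FRβ KO mice, whose *Folr2* is disrupted by insertion of a neomycin resistance gene, and the control cells were the same kind of macrophages from male WT C57BL/6 mice. Both genotypes had 7 days of culture in regular RPMI 1640 medium with 10% FBS and M-CSF at 20 ng/mL, followed by 24 hours of IFNγ (20 ng/mL) plus LPS (1 ng/mL). Each genotype is 1 library made from the pooled RNA of 3 mice, so the variation among mice is unknown and no test between genotypes was possible. The methods state that heterozygous males of the inbred SWV background were crossed with C57BL/6 females to make the KO mice, while WT mice were purchased. How many backcross generations followed is not stated in the sources used here, so the disrupted allele, the strain of origin of the DNA around it and the colony cannot be told apart in these libraries. The purchased WT mice were 6 to 8 weeks old, while the age of the KO mice and the meaning of FA_N in the sample names are not stated.

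Genes that lie close together on a chromosome are inherited together, and a targeted allele that was made in one strain and crossed to another keeps a stretch of the first strain's DNA around it for many generations. A disrupted gene with an inserted selection cassette can also affect genes beside it, which is why the neighbours of a knocked-out gene are commonly looked at as a group. The members share a place in the genome and not a function. They include signalling and trafficking genes of macrophages, lysosomal and mitochondrial enzymes, regulators of transcription and translation, and the very large interferon-inducible GTPases (GVINs), which are known to be induced by interferons.

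The KO library held 19742619 counts and the WT library 18871271. KO/WT ratios were taken on library sizes scaled by TMM, and each has an exact (Clopper-Pearson) 95% interval from its pair of counts. This interval covers counting error only, and reads without molecular identifiers are not independent molecules. In such bulk libraries, fewer cells of a type and less RNA per cell cannot be told apart. All 8 macrophage markers were detected, summing to 17495 CPM in KO and 19792 CPM in WT, and the 5 markers of the M1-like state to 4459 and 4841 CPM. *Lyz2* made up 275618 of the 349470 macrophage marker counts in KO and 304923 of 369160 in WT. *Nos2* made up 59486 of 89074 and 58376 of 90287 counts of the M1-like markers. Some single markers went against these sums, among them *Cd14* at 11218 counts in KO and 6017 in WT, *Cd86* at 3603 and 2620 and *Il12b* at 533 and 253. Markers of T cells had 0 counts in KO and 1 in WT, those of mast cells and basophils 0 and 1, those of B cells 10 and 17 with *Ms4a1* and *Pax5* at 0 in both, erythroid markers 11 and 3 (all *Klf1*), and fibroblast markers 60 and 67. Of the neutrophil list (419 and 668 counts), *S100a8* made up 407 and 652, and of the endothelial list (2432 and 2050), *Vwf* made up 2100 and 1672. Whether these bear on any member was not tested. *Folr2* itself (chr7:101839988-101857194) had 2 counts in KO and 0 in WT, too few to check the labels, since 3 counts is the limit that a count of 0 allows.

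Sequences are shown for the members that carry the main differences. First are the 250 bases upstream of the start for members near the proximal end of the window and for the member nearest to *Folr2*. They come from RefSeq (GRCm38.p6), which matched 83 of the 106 measured members by symbol, and are written 5′ to 3′ with capitals for matches to 3 motifs searched on both strands, so that capitals may show a motif's reverse complement. The motifs were the CCAAT box (CCAAT), the GC box core (GGGCGG) and the TATA box core (TATAAA). No base lay in matches to more than 1 of these motifs.
Ddias (chr7:92874248-92874497, minus strand): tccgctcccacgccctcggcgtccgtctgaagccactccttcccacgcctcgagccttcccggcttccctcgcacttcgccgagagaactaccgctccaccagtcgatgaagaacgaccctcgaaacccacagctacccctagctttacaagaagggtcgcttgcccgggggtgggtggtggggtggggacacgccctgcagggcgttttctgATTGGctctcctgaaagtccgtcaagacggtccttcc
Prcp (chr7:92875003-92875252, plus strand): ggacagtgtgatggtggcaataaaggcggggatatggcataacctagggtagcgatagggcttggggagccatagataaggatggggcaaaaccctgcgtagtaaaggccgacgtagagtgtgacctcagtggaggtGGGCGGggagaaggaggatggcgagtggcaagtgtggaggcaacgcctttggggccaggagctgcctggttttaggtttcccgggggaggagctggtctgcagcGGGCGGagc
Fam181b (chr7:93079629-93079878, plus strand): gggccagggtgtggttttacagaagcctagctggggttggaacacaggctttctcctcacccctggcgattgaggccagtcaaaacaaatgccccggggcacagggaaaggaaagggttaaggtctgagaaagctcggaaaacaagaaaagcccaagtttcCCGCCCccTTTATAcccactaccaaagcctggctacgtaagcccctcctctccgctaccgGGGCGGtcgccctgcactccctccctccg
Inppl1 (chr7:101838227-101838476, minus strand): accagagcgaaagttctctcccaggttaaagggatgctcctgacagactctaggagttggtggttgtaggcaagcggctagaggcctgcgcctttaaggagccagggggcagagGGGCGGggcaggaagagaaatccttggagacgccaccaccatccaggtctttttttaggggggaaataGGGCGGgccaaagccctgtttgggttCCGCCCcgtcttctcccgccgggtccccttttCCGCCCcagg
*Ddias* and *Prcp* are a head-to-head pair whose GENCODE starts lie 223 bases apart, so that the *Ddias* window above reaches over the outermost start of *Prcp*. The *Prcp* window is upstream of its RefSeq start and lies inside the GENCODE gene, which starts at 92874470. The 4 windows had a GC content of 58.4% to 63.2%. GGGCGG was found 2 times in the *Prcp* window, 2 times in that of *Fam181b*, 4 times in that of *Inppl1* (the outer of its 2 RefSeq starts) and 0 times in that of *Ddias*, which held 1 CCAAT, and *Fam181b* held 1 TATAAA. The GC box core occurs in 32.7% of all 32851 promoter windows of this length and in 67 of the 111 windows of measured members, CCAAT in 33.8% and 29, and TATAAA in 12.4% and 9. The windows of all genes were not limited to measured genes, and a gene may have several windows, so these shares are not of like sets. A match is a description of these letters only.

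The second set are the only bases at which the longest annotated transcripts of 2 members, *Gvin1* and *Gm4070*, differ. Over 9005 aligned bases there were 3 differences, all in the coding sequence, written as *Gvin1* base, position in the *Gvin1* transcript counted from its 5′ end, and *Gm4070* base: G2105T, G5204A and C7375T. Each is shown in capitals in 30 bases of both genes (mm10, GENCODE M21 transcripts).
Gvin1 (chr7:106163442-106163471, minus strand): aatctcagttgtgcaGccttctagaacctc
Gm4070 (chr7:105902025-105902054, minus strand): aatctcagttgtgcaTccttctagaacctc
Gvin1 (chr7:106160343-106160372, minus strand): ctatggaaggacggaGgagactggagcaga
Gm4070 (chr7:105898926-105898955, minus strand): ctatggaaggacggaAgagactggagcaga
Gvin1 (chr7:106158172-106158201, minus strand): ttccgggaattcccaCtcaagaaatatcga
Gm4070 (chr7:105896755-105896784, minus strand): ttccgggaattcccaTtcaagaaatatcga
Of the 8856 windows of 150 bases, the read length, along this alignment, 5.08% hold one of the 3 differing bases. A stretch of read length from any other place in the alignment is the same in both genes. Reads came in pairs, so the share of read pairs that hold a difference may be higher, and it was not taken.

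Of the 161 members, 106 had at least 10 counts over both libraries and are called measured here. The other 55 included 33 with 0 counts in both libraries and 22 with 1 to 9. Several of the silent members belong to other tissues, such as the olfactory channel subunit *Cnga4*, the gastrin receptor *Cckbr* and the skeletal muscle ADP-ribosyltransferase *Art1*. The highest levels per kb of exon were those of *Il18bp*, the secreted decoy for interleukin-18, at 167 CPM per kb in KO and 146 in WT, and of the small GTPase gene *Rhog*, at 114 and 112. *Eif4g2*, a translation initiation factor, had 83.0 and 78.5 CPM per kb, and *Ucp2*, a carrier of the mitochondrial inner membrane, 82.3 and 65.1. *Ucp2* was thus close to *Eif4g2* in KO and below it in WT.

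By ratio, 3 members were over 2-fold with their whole counting interval. *Fam181b* and *Ddias* were higher in KO, against a background of 0.311% of the 14489 genes measured in the whole table, and *Gvin1* was lower, against 0.407%. In either direction this was 2.83% of the members and 0.718% of all genes. Among the 11943 comparable genes, meaning measured protein-coding genes outside the left-out families, the background was 0.193% higher, 0.268% lower and 0.461% in either direction. With a limit of 1.5-fold, 3 members were higher (background 0.959% of all and 0.720% of comparable genes) and 5 lower (1.07% and 0.888%), or 8 of 106 against 2.03% of all and 1.61% of comparable genes. The interval lay above 1 for 31 members (background 15.0% of all and 16.0% of comparable genes) and below 1 for 24 (16.6% and 17.8%), which together is 51.9% of the members, 31.6% of all genes and 33.8% of comparable genes. The median log2 ratio was 0.06 for the members and -0.00281 for all genes, and the members went both ways. Because deeper genes leave 1 more easily, the same shares were taken at 500 counts or more, where 57.6% of 66 members and 41.2% of 7681 genes had an interval off 1. No test of these shares was made, since genes are not replicates of a genotype and neighbours are not independent.

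**Figure D1:**
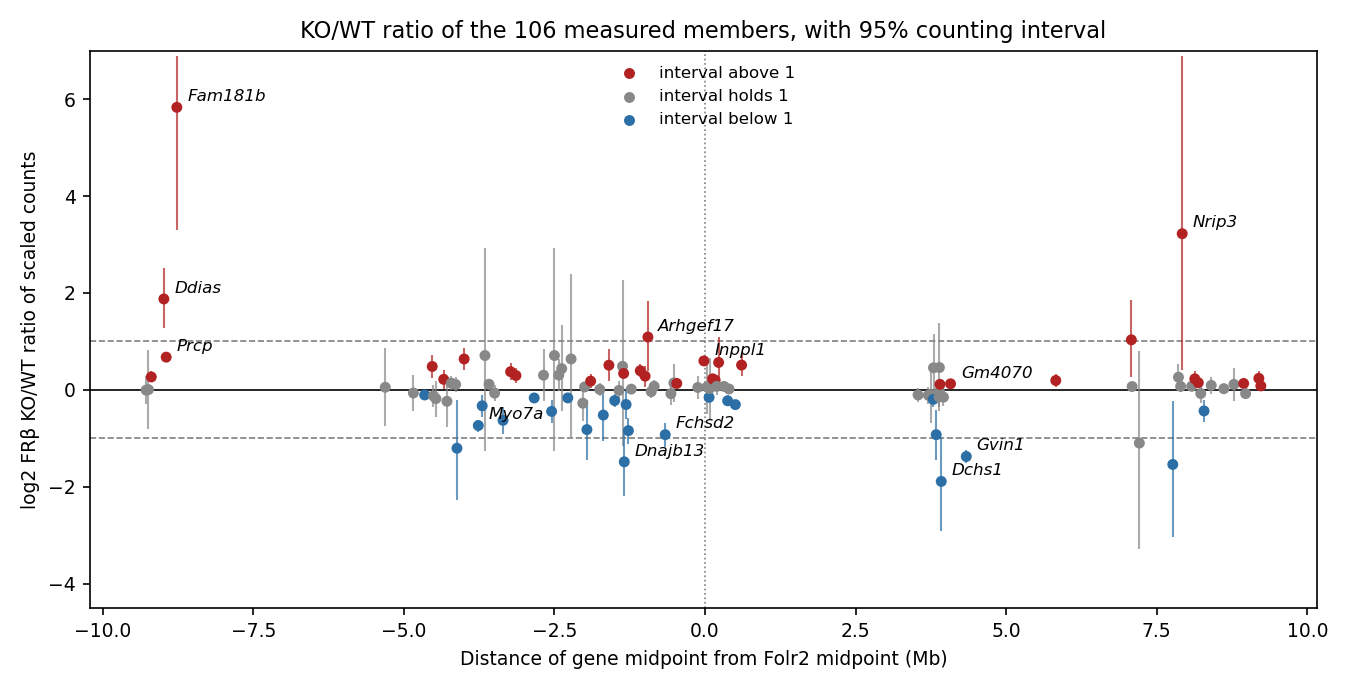
KO/WT ratio (log2, vertical axis) of the 106 measured members against the distance of the gene's midpoint from that of *Folr2* in Mb (negative is proximal, towards the centromere). Points are ratios of TMM-scaled counts, lines their 95% counting intervals (the upper ends of *Fam181b* and *Nrip3* run past the top of the axis), dashed lines mark 2-fold, and the 3 members wholly beyond 2-fold lie at -8.98, -8.77 and 4.34 Mb.

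Along the chromosome, the 3 members over 2-fold lay 4.34 Mb or more from *Folr2*, too few to describe an order with distance. The background over 2-fold was 0.718% of all and 0.461% of comparable genes, and past 1.5-fold it was 2.03% and 1.61%. Of the 22 measured members within 1 Mb, 0 were over 2-fold, which allows a share of up to 15.4% by the exact binomial interval, and 1 was past 1.5-fold. From 1 to 2.5 Mb these counts were 0 and 1 of 21, from 2.5 to 5 Mb 1 and 3 of 36, from 5 to 7.5 Mb 0 and 0 of 5, and from 7.5 to 10 Mb 2 and 3 of 22. The share with an interval off 1 was 54.5% within 1 Mb, 52.4%, 50% and 40.0% in the next 3 bins and 54.5% from 7.5 to 10 Mb. By direction, 19 intervals lay above 1 and 22 below among the 79 members within 5 Mb, and 12 above and 2 below among the 27 from 5 to 10 Mb. The background was 15.0% above and 16.6% below over all genes, and 16.0% and 17.8% over comparable genes.

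Outside the window, the share was 34.8% of 66 comparable genes from 10 to 20 Mb, 28.7% of 174 from 20 to 30 Mb, 31.3% of 568 farther along chromosome 7 and 33.8% of 11029 on other chromosomes. From 10 to 20 Mb, 0 of the 66 genes were past 1.5-fold. At 500 counts or more, the shares were 58.8% of 17 members within 1 Mb, 57.6% of 33 from 1 to 5 Mb and 56.2% of 16 from 5 to 10 Mb, against 47.6% of 42 genes from 10 to 20 Mb and 30.7% of 101 from 20 to 30 Mb, 40.3% of 300 farther along the chromosome and 41.0% of 6884 on other chromosomes. Among genes with at least 50 counts, the median size of the log2 ratio was 0.18 for members and 0.13 for all genes. It was 0.25 for the 54 members on the proximal side of *Folr2* and 0.14 for the 42 on the distal side. Proximal members had fewer counts, and at 500 counts or more these medians were 0.17 over 34 proximal and 0.13 over 32 distal members. The outermost measured members were *Ccdc90b* at -9.28 Mb (208 counts in KO and 195 in WT, ratio 0.996) and *Eif4g2* at 9.23 Mb (16864 and 14885, ratio 1.06). Just outside the window lay *Usp47* at 10.2 Mb (2782 and 2549, ratio 1.02) and *Dlg2* at -10.4 Mb (3 and 8 counts, with an interval that holds 1).

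**Figure D2:**
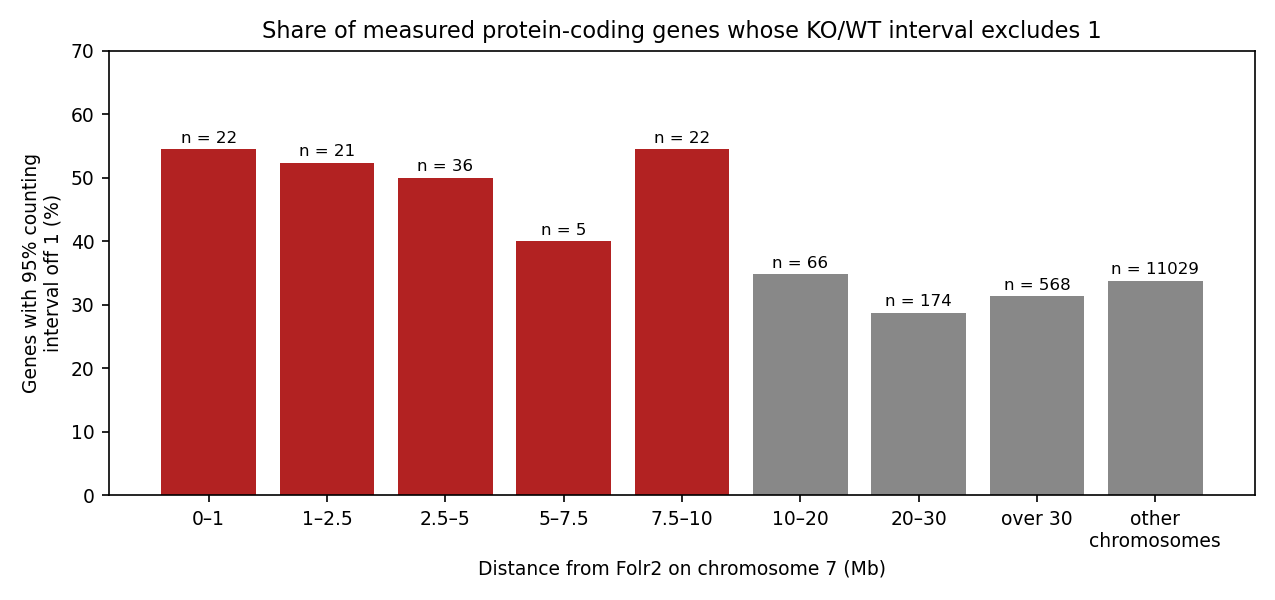
Percent of measured protein-coding genes, outside the left-out families, whose 95% counting interval of the KO/WT ratio excludes 1 (vertical axis), by distance from *Folr2* on chromosome 7 in Mb, with other chromosomes at the right. Red bars are members, grey bars other genes, and the number of genes stands above each bar; the bars within 10 Mb reach 40.0% to 54.5% and the others 28.7% to 34.8%.

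The proximal end of the window held both members that were higher by over 2-fold with their whole interval. *Fam181b* (chr7:93079865-93081867) had 61 counts in KO and 1 in WT (ratio 57.0, 95% interval 9.85 to 2286), so that its level was near the limit of detection in WT. Of its exon bases, 56.8% lie opposite *Gm9934*, an antisense gene listed with 0 counts in both libraries, and the strand setting of the counts is not known. *Ddias*, which encodes a suppressor of apoptosis after DNA damage, had 114 counts in KO and 29 in WT (ratio 3.67, 2.42 to 5.73). Its head-to-head neighbour *Prcp*, the lysosomal prolylcarboxypeptidase, had 4281 and 2504 (ratio 1.60, 1.52 to 1.68). *Pcf11*, a factor of transcript cleavage and transcription termination, had 1445 and 1122 (ratio 1.20, 1.11 to 1.30). It lies proximal to this pair, with a member of fewer than 10 counts between them. *Fam181b*, *Ddias*, *Prcp* and *Pcf11* were thus higher in KO. *Ccdc90b* and *Ankrd42*, which lie proximal to *Pcf11*, had ratios of 0.996 and 1.00 with intervals that hold 1.

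The GVIN genes lie about 4 Mb distal to *Folr2*. *Gvin1* (chr7:106156556-106215326) had 710 counts in KO and 1721 in WT (ratio 0.385, 0.352 to 0.421), and *Gm4070* (chr7:105895139-105953967) had 2116 and 1812 (ratio 1.09, 1.02 to 1.16). Since the 2 transcripts differ at the 3 bases shown above, how reads were divided between them depends on the counting, whose treatment of reads with several matches is unknown. Summed, the pair had 2826 counts in KO and 3533 in WT, a ratio of 0.747 (0.711 to 0.785). The summed counts of the pair were thus lower in KO by less than 2-fold. Reads were aligned to mm10, and whether any DNA of another strain in KO changed how they aligned was not tested for any member.

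Between and beyond them stand 5 GVIN loci that the annotation lists as pseudogenes, which are not members. Of these, *Gm8979* and *Gm8989* have some identical 150-base windows in common with *Gvin1* and *Gm4070*, while *Gm4759*, *Gm8995* and *Gm1966* have none. *Gm1966* had 63 counts in KO and 3090 in WT (ratio 0.0190, 0.0146 to 0.0244), and *Gm8979* had 7 and 53 (ratio 0.123). In the other direction, *Gm8989* had 98 and 39 (ratio 2.35) and *Gm4759* had 27 and 0, with a lower limit of 6.38 for its ratio. *Gm8995*, the most abundant, had 12425 and 15598 (ratio 0.744). All 7 loci together had 15446 counts in KO and 22313 in WT (ratio 0.646, 0.633 to 0.660). *Gm1966* shared 0% of its 150-base windows with the other 6 loci and *Gm8995* 0.549%, against 96.2% for *Gvin1*, 91.2% for *Gm4070*, 55.7% for *Gm8979* and 51.2% for *Gm8989*. The shares of *Gm8979* and *Gm8989* were mostly with each other (50.1% and 50.2%). With *Gvin1* they shared 7.14% and 2.48% of their windows. *Gm4759*, like *Gm1966*, shared 0%, so 2 of the loci that differed most have no identical 150-base stretch of reference transcript in common with the others. Reads that align with mismatches are not covered by these shares, and *Gm4759* rests on 27 counts in KO and 0 in WT.

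**Figure D3:**
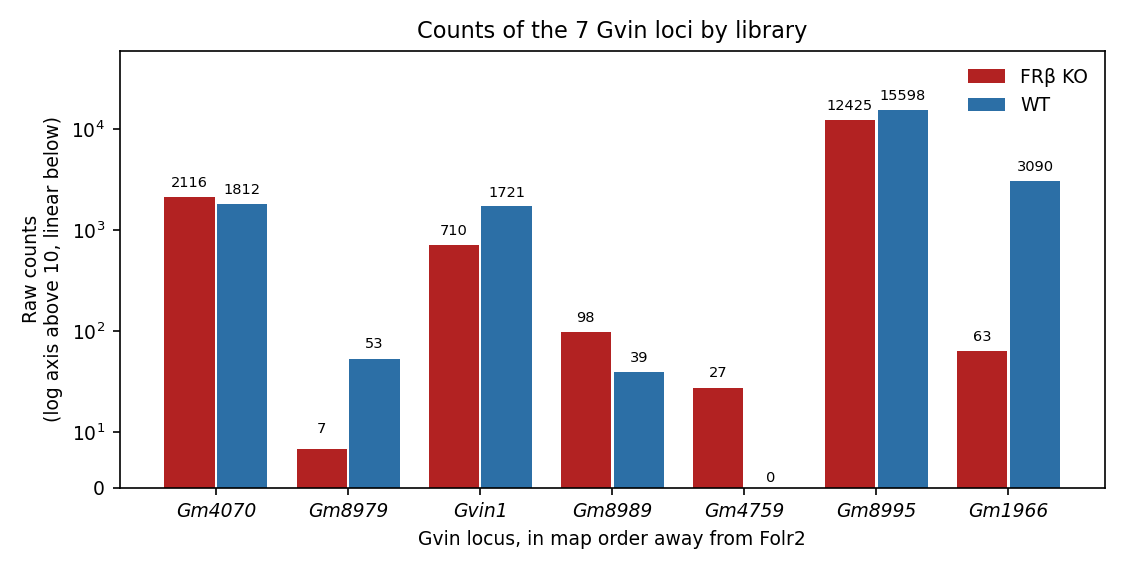
Raw counts (vertical axis, logarithmic above 10 and linear below) of the 7 GVIN loci in map order away from *Folr2*, in the FRβ KO library (red, left) and the WT library (blue, right). *Gvin1* and *Gm4070* are members and the other 5 are listed as pseudogenes; *Gm1966* has 63 counts in KO and 3090 in WT, while *Gm8995* has 12425 and 15598.

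Next to *Folr2*, no member was over 2-fold by its whole interval, and differences went both ways. The nearest measured member is *Inppl1* (chr7:101822632-101838229), whose start lies 1759 bases from the 3′ end of *Folr2* and which encodes SHIP2, an inositol phosphatase that removes the 5-phosphate of the PI3-kinase product. It had 3041 counts in KO and 1877 in WT (ratio 1.51, 1.43 to 1.60), and was the most changed by ratio among the members within 0.5 Mb. Of its exon bases, 20.3% are shared with *Phox2a* (2 counts in KO and 0 in WT) and the antisense gene *Gm10602* (13 and 6), and whether reads of these genes were counted for *Inppl1* was not tested.

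Farther out on the proximal side, *Fchsd2*, an F-BAR protein gene of actin assembly and endocytosis, had 221 counts in KO and 392 in WT (ratio 0.526, 0.444 to 0.622). *Arhgef17*, a guanine nucleotide exchange factor gene, had 57 and 25 (ratio 2.13, 1.31 to 3.56). *Arap1*, which acts on small GTPases, had 7478 and 6371 (ratio 1.10, 1.06 to 1.13), and *Relt*, a receptor of the TNF receptor superfamily, 400 and 307 (ratio 1.22, 1.05 to 1.42). The intervals held 1 for *P2ry6* (ratio 0.975) and *P2ry2* (1.05), receptors for extracellular nucleotides, for the autophagy gene *Atg16l2* (0.947), the lipid transfer gene *Stard10* (1.10) and the mitochondrial disaggregase gene *Clpb* (1.03).

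On the distal side within 1 Mb, *Rrm1*, the large subunit of ribonucleotide reductase, had 403 counts in KO and 264 in WT (ratio 1.43, 1.22 to 1.67), and the spindle pole gene *Numa1* had 4287 and 3419 (ratio 1.17, 1.12 to 1.23). *Il18bp* had 10118 and 8222 (ratio 1.15, 1.12 to 1.18) and *Xndc1* 84 and 53 (ratio 1.48, 1.04 to 2.13). Lower in KO were *Stim1*, the calcium sensor of the endoplasmic reticulum, with 1453 and 1676 (ratio 0.810, 0.754 to 0.869), *Pgap2*, which remodels the lipid of GPI anchors, with 1221 and 1333 (ratio 0.855, 0.791 to 0.925), and *Lamtor1*, which anchors the Ragulator complex to lysosomes, with 2002 and 2082 (ratio 0.898, 0.844 to 0.955). The intervals held 1 for *Rhog* (ratio 1.01), the nucleoporin gene *Nup98* (1.05), *Rnf121* (1.05), *Anapc15*, a subunit of the anaphase-promoting complex (1.04), and *Lrrc51* (1.02). Within 1 Mb on both sides, 8 intervals thus lay above 1, 4 below and 10 held 1, some of the last being wide, such as 0.662 to 1.57 for *Lrrc51*. Over all genes, 15.0% of intervals lay above 1 and 16.6% below. At 500 counts or more, the interval was off 1 for 58.8% of 17 members within 1 Mb and 41.2% of all genes.

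**Figure D4:**
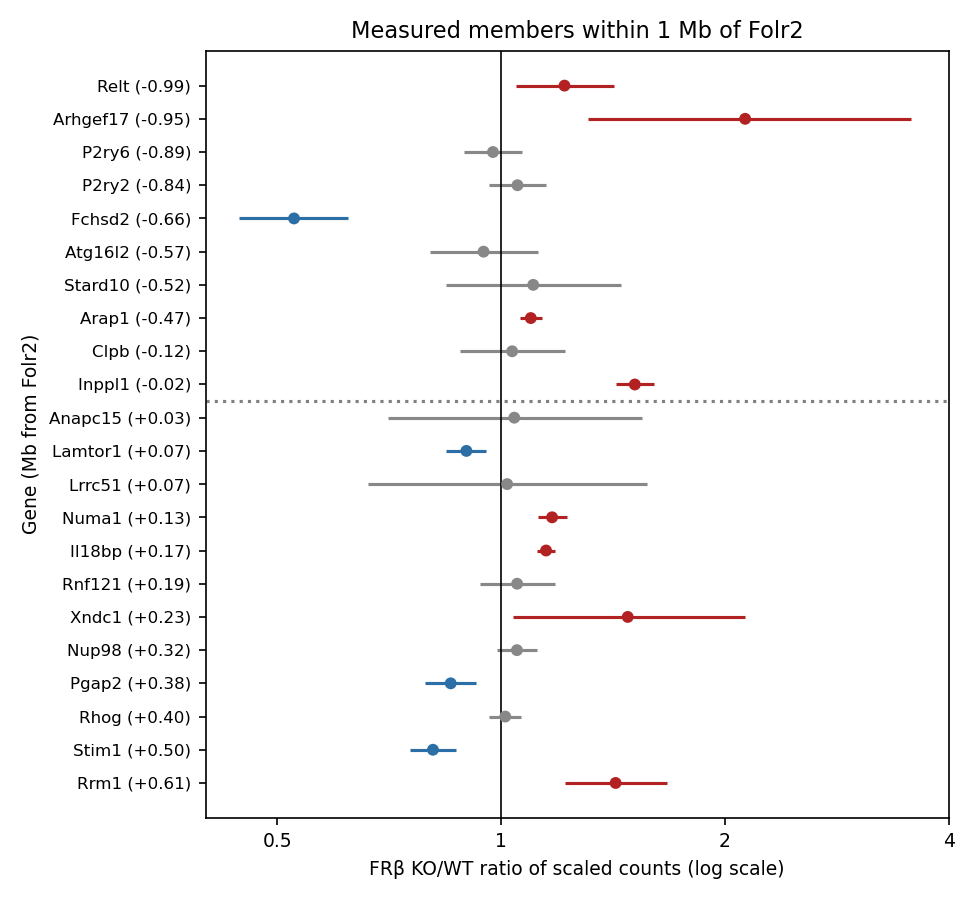
KO/WT ratio (horizontal axis, log scale) of the 22 measured members within 1 Mb of *Folr2*, in map order with their distance in Mb, points with 95% counting intervals. The dotted line is the place of *Folr2*, red marks intervals above 1, blue below 1 and grey those that hold 1; *Arhgef17* (2.13) and *Fchsd2* (0.526) are farthest from 1.

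Among the remaining members past 1.5-fold, 3 were lower in KO. *Myo7a*, an unconventional myosin gene, had 878 counts in KO and 1366 in WT (ratio 0.600, 0.551 to 0.654). *Dnajb13*, a cochaperone gene of motile cilia, had 26 and 68 (ratio 0.357, 0.218 to 0.569), with 11.2% of its exon bases shared with the far more abundant *Ucp2*. *Dchs1*, a large cadherin, had 13 and 45 (ratio 0.270, 0.134 to 0.509) and lay just short of the 2-fold limit, while *Gvin1* was the member closest inside it. Just short of 1.5-fold was *Mrpl48*, a mitochondrial ribosome gene, with 181 and 303 (ratio 0.558, 0.461 to 0.673), followed by *Inppl1*. Ratios beyond 2-fold in either direction with an interval that reached nearer to 1 were also found at low counts. Higher were *Nrip3*, with 10 counts in KO and 1 in WT (ratio 9.34, 1.33 to 405), and *Nlrp10*, of the NOD-like receptor family, with 46 and 21 (ratio 2.05, 1.20 to 3.61). Lower were *St5*, with 7 counts in KO and 19 in WT (ratio 0.344, 0.122 to 0.855), and *Aqp11*, of the aquaporin family, with 13 and 28 (ratio 0.434, 0.206 to 0.865). *Lrrc32*, encoding GARP, which holds latent TGF-β at the cell surface, had 173 and 250 (ratio 0.646, 0.529 to 0.788). At such counts the intervals of *Nrip3*, *Nlrp10*, *St5* and *Aqp11* reach over both small and large differences.

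Role lists, written for these neighbours with earlier results of these data known, mostly held genes on both sides of 1. Their counts stand beside a background of 15.0% above and 16.6% below 1 over all genes, and 31 above and 24 below among the 106 members. Of 9 lysosome and autophagy genes, 3 had an interval above 1 and 2 below. They include *Tpp1*, a lysosomal peptidase, with 4301 counts in KO and 3712 in WT (ratio 1.08, 1.04 to 1.13), and the median log2 ratio was -0.08. Of 12 genes of small GTPases, trafficking and actin, 3 were above and 3 below, with *Pak1*, a kinase bound by Rac and Cdc42, at 418 and 251 (ratio 1.56, 1.33 to 1.83) and *Dennd5a* at 2584 and 2293 (ratio 1.05, 0.994 to 1.11). Of 11 receptors and signalling proteins, 4 were above and 4 below. *Arrb1*, encoding β-arrestin-1, had 5428 and 5688 (ratio 0.891, 0.858 to 0.925), and the docking protein gene *Gab2* 2601 and 2613 (ratio 0.929, 0.880 to 0.982).

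Of 13 genes of transcription, RNA processing and translation, 6 had an interval above 1 and 0 below, with a median log2 ratio of 0.11 and ratios of no more than 1.30. *Eif4g2* had an interval of 1.03 to 1.08 and *Eif3f*, a subunit of initiation factor eIF3, 2258 counts in KO and 2011 in WT (ratio 1.05, 0.987 to 1.11). Of 9 mitochondrial genes, 1 was above and 3 below. The 1 above was *Ucp2*, with 11494 and 8487 counts (ratio 1.26, 1.23 to 1.30), while *Mrpl17*, another gene of the mitochondrial ribosome, had 545 and 565 (ratio 0.901, 0.799 to 1.01).

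Of 7 genes of cell division and DNA repair, 3 were above and 2 below. *Ppme1*, a methylesterase of protein phosphatase 2A, had 985 counts in KO and 1072 in WT (ratio 0.858, 0.786 to 0.936), and *Pold3*, a subunit of DNA polymerase delta, 948 and 880 (ratio 1.01, 0.917 to 1.10). Of 8 metabolic genes, 2 were above and 1 below, with the AMP deaminase gene *Ampd3* at 1355 and 1155 (ratio 1.10, 1.01 to 1.19) and the ceramidase gene *Acer3* at 1267 and 1092 (ratio 1.08, 0.998 to 1.18). Of 5 matrix and secreted protein genes, only *Dchs1* left 1. *Tsku*, a secreted leucine-rich repeat protein gene, had 560 and 548 (ratio 0.954, 0.847 to 1.08), and *Hpx*, the heme carrier hemopexin, 50 and 50 (ratio 0.934, 0.618 to 1.41). Of 14 neuronal, sensory and germ cell genes in the window 3 were measured, which besides *Fam181b* were *Map6*, a microtubule stabilizer, with 247 and 314 (ratio 0.735, 0.619 to 0.871), and *Ric3* with 4 and 8 counts.

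**Figure D5:**
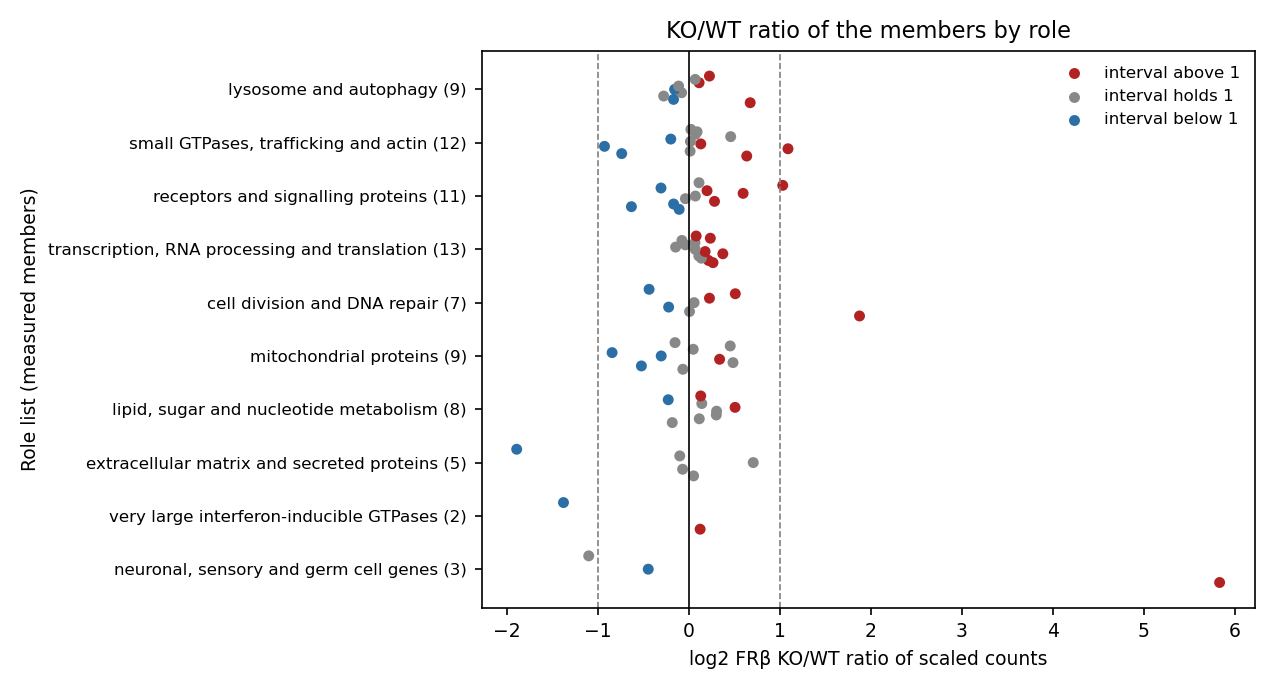
KO/WT ratio (log2, horizontal axis) of measured members by role list, with the number of genes in brackets. Each point is a gene, red where its 95% counting interval lies above 1, blue below and grey where it holds 1, and dashed lines mark 2-fold. Most genes lie between these lines. *Fam181b* (ratio 57.0), *Ddias* (3.67), *Arhgef17* (2.13) and *Nlrp10* (2.05) lie to the right, and *Dchs1* (0.270), *Gvin1* (0.385) and *Ric3* (0.467) to the left.

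Strand, copies and overlaps were also compared. The interval was off 1 for 55.8% of the 52 measured members on the plus strand and 48.1% of the 54 on the minus strand. A near-identical copy in another gene (95% identity over at least 150 bases) was found for 13 measured members, of which 1 (*Gvin1*) was over 2-fold, against 2 of the 93 without a copy. Among comparable genes of the whole table, 1.06% of those with a copy and 0.361% of those without were over 2-fold. Exons of 10 measured members overlap another gene's by more than 20% of their bases, among them *Ilk*, the integrin-linked kinase gene, whose 28 counts in KO and 19 in WT lie in a gene 89.7% covered by *Taf10* and *Rrp8*. The levels of such genes are uncertain, since their reads cannot be told apart from those of the neighbour without knowing the counting.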

How the data were processed

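M1-like BMDMs of FRβ KO and WT mice gave 1 pooled library each. The deposited values are raw counts per gene, which the authors obtained from trimmed 150 bp paired-end reads aligned to mm10 with HISAT2. The counting program, annotation, strand setting and treatment of reads with several matches are not stated in the sources used here. Gene names, types and coordinates came from GENCODE M21, which lacked 37 of 54532 identifiers. Library sizes were scaled by TMM (edgeR 4.0.16, R 4.3.3), making the KO size 1.07 times the WT size. KO/WT ratios had exact Clopper-Pearson 95% intervals (scipy 1.17.1) among genes with at least 10 counts, and log2 ratios in medians used a prior count of 2. A count of 0 allows up to 3 counts, or 0.150 CPM in KO and 0.161 CPM in WT. The study's p-value cutoffs in edgeR were not used, because they need replicate libraries. The call rule was run on simulated counts with counting error only, which cannot speak for variation among mice or pools. Copies were searched with blastn 2.17.0. The members and lists were chosen with earlier results of these data known. Named genes were those past 2-fold or, with 50 counts, past 1.5-fold by their whole interval, all measured members within 1 Mb, the 3 most abundant of each list and those at the limits. *Pak1*, *Pcf11*, *Mrpl48*, *Nrip3*, *Nlrp10*, *St5*, *Aqp11*, *Lrrc32*, *Ankrd42*, *Ilk*, the GVIN pseudogenes and the silent members were named after their values were seen. Alternatives were other scalings (total counts, upper quartile, DESeq2 1.42.0 size factors), filters, limits, intervals, windows and prior counts.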

Additional observations from a re-analysis of the deposited data

How the results depend on the processing

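The members over 2-fold were 2 higher and 1 lower in FRβ KO. By point ratio without an interval they were 5 higher and 6 lower, 5 of them within 5 Mb and 6 from 5 to 10 Mb, where the interval rule gave 1 and 2. With a limit of 1.5-fold 5 were lower, and 5 lay within 5 Mb. In a window of 5 Mb, 0 were higher and the interval lay above 1 for 19 members and below 1 for 22, against 31 and 24 in the whole window. Without members that have a near-identical copy 0 were lower, and with the counts of *Gvin1* and *Gm4070* summed, which was chosen after seeing the data, 0 were lower too. Under the 3 other scalings no member's interval turned to the other side of 1. With total counts 4 of the 55 members with an interval off 1 lost it and 7 others gained it. The median log2 ratio of the members ranged from 0.02 to 0.10 over the alternatives, against 0.06 in the main setting. The lowest was that of the 5 Mb window. In all, 53 values of the counts and of that median were classed as unchanged. This meant within 1.5 times for counts, while the limits used for the median are not given here. No paired analysis was possible because each genotype has 1 library. With few counts, as for *Fam181b* in WT, depth limits the size of the ratio more than its direction.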
